A study of Mus musculus with 3 samples.

Results

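The clustered histone genes of the mouse were described in chromatin-bound RNA of macrophages. They were chosen by name and type: every gene whose symbol begins with Hist1h, Hist2h, Hist3h or Hist4h and that has at least 1 protein-coding transcript in GENCODE M21, which gave 67 genes of 55536 annotated genes (22028 of them protein-coding). The pseudogenes Hist1h2aj, Hist1h2al and Hist3h2bb-ps share the name pattern and were left out. The cells were bone-marrow-derived macrophages, phagocytes cultured out of C57BL/6J marrow, given 100 ng/ml lipid A, the membrane anchor of bacterial endotoxin, for 30 min. All 3 libraries belong to that single group and are numbered as biological replicates 1 to 3 with 1 donor record, made from 1 µg, 250 ng and 500 ng of RNA. No unstimulated library was analysed here, and nothing in the labels says whether the replicates came from separate mice, so each spread describes these libraries and may be technical.

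Histones are the proteins that DNA is wound around: pairs of H2A, H2B, H3 and H4 form the core of the nucleosome, and the linker histone H1 binds where DNA enters and leaves it. The clustered genes are intronless in their main form and are known to be transcribed mostly in S phase, when new DNA has to be packed. Their mRNAs usually end not in a poly(A) tail but just after a short RNA hairpin, which the protein SLBP binds and which directs cleavage together with the U7 snRNA. Some of the genes are also known to make a longer, polyadenylated transcript in cells that do not divide. For packing outside S phase cells use replacement histones from genes that lie elsewhere.

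The hairpin is shown first, since it is the sequence the family is known for and the gene models are sorted by it below. It was searched in GENCODE M21 transcripts as 16 bases beginning with GG and ending with CC, with 6 paired bases on each side of a loop of 4 that begins with TT, and an A after the loop, with G-T pairs allowed. Of the 67 genes, 44 held it in at least 1 annotated transcript, in 6 forms. Models of the others may stop before it, so its absence from a gene was not shown. Stems are in lower case and the loop is in capitals.
shared form: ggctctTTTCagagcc
H4 form: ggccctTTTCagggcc
loop ending in A: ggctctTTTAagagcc
second H4 form: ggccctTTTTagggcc
rarer H4 form: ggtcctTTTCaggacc
Hist2h2ac form: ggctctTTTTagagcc
The shared form stood in 26 genes (3 H1, 10 H2A, 8 H2B and 5 H3) and in no H4 gene. The H4 form stood in 7 genes and the second and the rarer H4 forms in 2 each, all of them H4. The form whose loop ends in A stood in 6 genes of H1, H2B and H3, and the last in Hist2h2ac alone among the 67. By the same search, 0.184% of 58725 other protein-coding transcripts held a hairpin, so the pattern is rare elsewhere but not absent.

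Clustered histone genes held a very small share of the counts in these chromatin libraries. How RNA was selected for the libraries is not given here, so the share in the chromatin fraction itself may differ. The 67 genes together held 1024, 925 and 987 of 16301150, 17033725 and 16205704 expected counts in libraries 1 to 3, which is 0.00628%, 0.00543% and 0.00609%. An expected count is the number of reads assigned to a gene by a model that shares out reads fitting several genes, so it need not be whole. Of the 67 genes, 25 reached a mean of 10 expected counts and are called detected, or 37.3%, against 49.9% of protein-coding genes. In library 1, 32 genes reached 10 counts and 10 were at 0, in library 2 it was 30 and 10, and in library 3 it was 23 and 13. Hist1h2aa, Hist1h2ba and Hist2h2aa1 were at 0 in each library. Expressed as CPM, counts scaled to the same total in each library, the limit that 0 counts set (3 counts) was 0.184, 0.176 and 0.185 CPM in libraries 1 to 3, for counting error only. Hist1h2aa and Hist1h2ba are known from testis, where they replace their relatives in sperm precursors, while the reads of Hist2h2aa1 cannot be told from those of a copy, as described below.

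Per length, the median gene of the family stood at 0.70, 0.84 and 0.48 TPM in libraries 1 to 3, or 0.673 ± 0.182 (SD, n = 3). TPM divides counts by transcript length and scales each library to a fixed total. The median protein-coding gene had 0.20, 0.24 and 0.43 TPM. The gene with the highest TPM of the family was Hist1h4m in library 1, Hist2h2ac in library 2 and Hist3h2a in library 3, and 82.8%, 82.9% and 81.7% of protein-coding genes lay below it. By expected counts the libraries were those of macrophages, with 8 of 8 macrophage genes detected and none of 5 T and NK, 4 B or 5 neutrophil genes. Of the others, 1 of 5 erythroid, 3 of 4 stromal and 2 of 3 endothelial genes were detected, with summed levels of 1.60 to 2.76, 0.368 to 4.75 and 7.87 to 10.9 CPM over the libraries. In a second quantification, described below, Cd3g had 30.0, 49.7 and 52.5 estimated counts and Zap70 14, 18 and 13 (both T and NK). Ms4a1 (B) had 57.3, 60.8 and 49.8 there and Ngp (neutrophil) 7, 11 and 23. The other T and NK, B and neutrophil genes had at most 10 in any library. The part of other cell types in the histone values was not tested. In bulk RNA, fewer cells of a type and less RNA per cell cannot be told apart.

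Hist3h2a, an H2A gene of the small Hist3 cluster (chromosome 11, 58954685 to 58956830, plus strand, build mm10), held more counts than any other gene of the family in each library of the gene table. In the second quantification it was first in libraries 1 and 3, and in library 2 Hist1h1d had 177 estimated counts, against 147 for Hist3h2a. In the gene table it had 142, 119 and 363 expected counts in libraries 1 to 3. Library 3 stood far above the other 2, and the mean was 208 ± 135 (SD, n = 3), or 131 without library 3. Its CPM was 8.73, 6.99 and 22.4, and its TPM was 2.74, 2.54 and 11.8, with a mean of 2.64 TPM without library 3. The credible bounds deposited with these TPM values, whose level is not stated, were 2.18 to 3.07 in library 1, 1.94 to 2.83 in library 2 and 9.77 to 12.0 in library 3, and the last range did not overlap the others. By TPM, however, 87.3% of all 14396 detected genes were highest in library 3, against 53.2% by CPM. Part of the gap in TPM was thus shared by most genes.

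The annotation places Hist3h2a inside Trim17, a ubiquitin ligase gene, on the same strand. The first exon of the transcript Trim17-201 starts at the same base as Hist3h2a and covers its first 708 bases, the coding part included, and the remaining bases of Hist3h2a lie in the intron that follows. Trim17-202 starts 9117 bases downstream and shares no exon base with Hist3h2a. Trim17-202 had 99.5, 87.0 and 227 expected counts in libraries 1 to 3, so it too was highest in library 3. Trim17-201 had 16.9, 0 and 0 expected counts in the gene-table quantification but 50.1, 27.8 and 100.0 in the second one, so the counts of this transcript differed between them. Of all runs of 50 bases in Hist3h2a, 68.5% occur in transcripts of no other gene. Whether the reads of Hist3h2a stem from the histone gene or from unspliced Trim17 RNA was not tested.

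**Figure D1:**
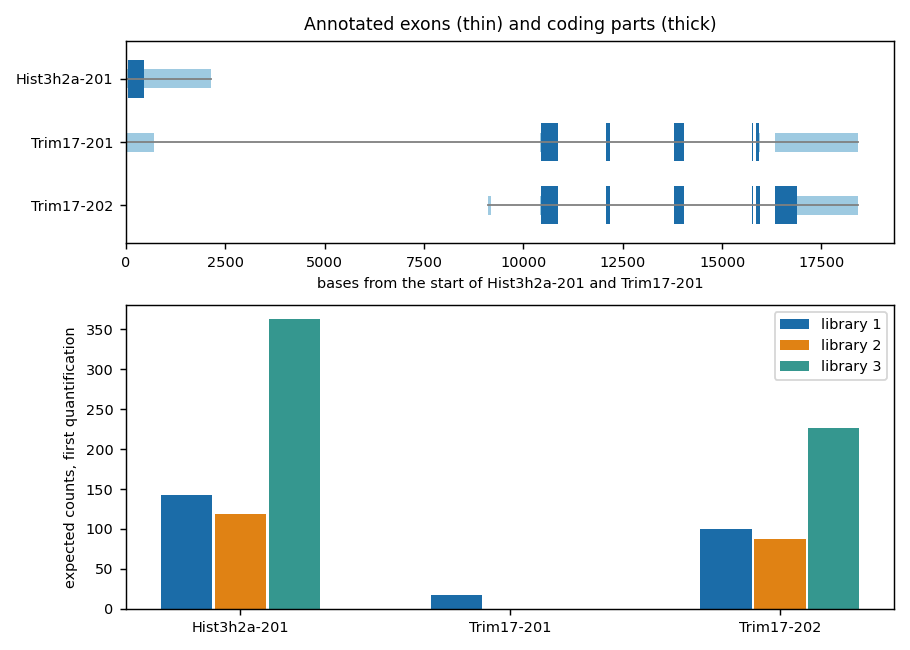
Annotated exons of Hist3h2a-201, Trim17-201 and Trim17-202 by distance in bases from the start that the first and second share, and expected counts of each transcript in libraries 1 to 3 (1 bar a library). Hist3h2a-201 and Trim17-202 were both highest in library 3, at 363 and 227 counts, and Trim17-201 had counts in library 1 only in this quantification.

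Since this gene alone held 12.7 ± 8.43 of 59.3 ± 4.44 CPM (SD, n = 3), sums are given with and without it. All 67 genes summed to 62.8, 54.3 and 60.9 CPM in libraries 1 to 3. Without Hist3h2a they summed to 54.1, 47.3 and 38.5 CPM, so the order of libraries differed between the sums. With library totals scaled by TMM, which corrects for differences in RNA composition, the sum without Hist3h2a was 56.9, 48.7 and 35.6 CPM, in the same order. By CPM, 14 of the 25 detected genes were highest in library 1 and 15 were lowest in library 3, against 20.2% and 19.8% of all 14396 detected genes. By TPM the order turned: 2 of the 25 were highest in library 1 and 21 in library 3, against 3.73% and 87.3% of all detected genes. With 1 library for each amount of starting RNA, amount and replicate cannot be told apart.

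**Figure D2:**
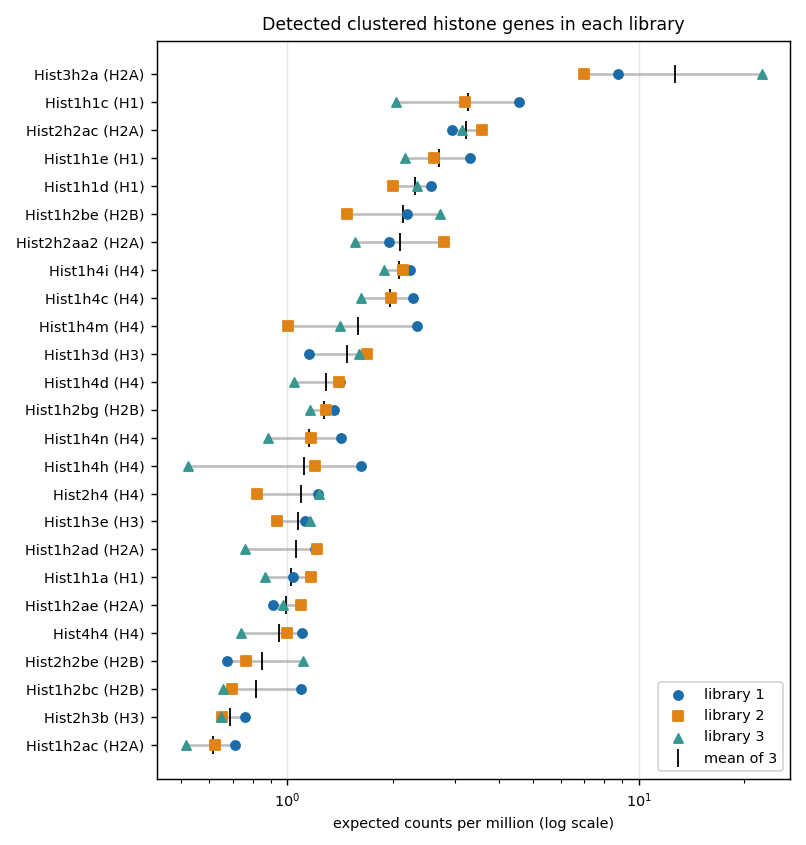
CPM from expected counts (log scale) of the 25 detected clustered histone genes in libraries 1 to 3, with the histone type in brackets and a tick at the mean. Hist3h2a in library 3 stands apart at 22.4 CPM, and all means of the other genes lie between 0.618 and 3.27 CPM.

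Of the 6 linker histone genes 4 were detected. Hist1h1c, the gene of H1.2, had 74.6, 54.6 and 33.0 expected counts in libraries 1 to 3, and Hist1h1e, the gene of H1.4, had 54.2, 44.6 and 35.2. Both were highest in library 1 and lowest in library 3, with 54.1 ± 20.8 and 44.6 ± 9.50 counts (SD, n = 3). Hist1h1d, the gene of H1.3, had 42.0, 34.0 and 38.0 counts, a smaller spread. Per length the order among the 3 was the same in each library of the gene table. Hist1h1c had 2.05, 1.68 and 1.54 TPM in libraries 1 to 3 and Hist1h1e 1.17, 1.08 and 1.28. Hist1h1d, whose model is 7425 bases long, had 0.22, 0.19 and 0.33. In the second quantification Hist1h1d had 0.710, 0.641 and 1.19 TPM and Hist1h1e 1.23, 0.846 and 1.02, so their order turned in library 3. By mean estimated count Hist1h1d was first of the 3, at 173, against 61.3 for Hist1h1c and 52.2 for Hist1h1e. Hist1h1a, the gene of H1.1, had 17.0, 20.0 and 14.0 expected counts, and all 4 genes lie between 23531050 and 23934851 on chromosome 13. The other linker genes were not detected: Hist1h1b, the gene of H1.5, averaged 8.33 ± 4.73 counts and the testis gene Hist1h1t 0.667 ± 0.577.

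Among H2A genes, Hist2h2ac of the Hist2 cluster (chromosome 3, 96220361 to 96220880, minus strand) had the highest mean TPM of the family. It had 48.0, 61.2 and 51.0 expected counts, or 5.56, 8.74 and 11.0 TPM, in libraries 1 to 3. Its counts varied little (53.4 ± 6.92, SD, n = 3), while its TPM was lowest in library 1 and highest in library 3. The mean of 8.43 ± 2.73 TPM stood above those of Hist1h4m at 6.40 ± 2.12, Hist3h2a at 5.68 ± 5.27 and Hist2h2aa2 at 5.17 ± 1.52. Each of these means differed from the next by no more than their spread. Hist1h4m stood above Hist2h2ac in library 1, at 6.92 TPM, and Hist3h2a in library 3, at 11.8. Hist2h2aa2 was below it in each library, at 3.59, 6.61 and 5.32 TPM. Hist1h4n followed at 4.08 ± 0.37, Hist1h4i at 3.15 ± 0.64 and Hist1h4h at 3.11 ± 0.79 TPM.

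Hist2h2aa2 had 31.7, 47.5 and 25.4 expected counts in libraries 1 to 3, while its copy Hist2h2aa1 had 0 in each. Its transcript of 528 bases lies whole within that of Hist2h2aa1, which has 586, so its reads cannot be told from those of Hist2h2aa1 by sequence. All 528 bases also lie opposite the antisense model Gm20632, which averaged 27.6 expected counts, and Hist2h2aa1 lies opposite Gm20633, which averaged 42.1. The strand setting of the counting is not given in the sources used here, so a sense read and an antisense read cannot be told apart. The same holds for Hist2h3b, an H3 gene with 12.4, 11.1 and 10.5 counts that lies opposite the antisense model Gm20628, which averaged 28.2. Of the remaining detected H2A genes, Hist1h2ad averaged 17.6 ± 4.58, Hist1h2ae 16.4 ± 1.99 and Hist1h2ac 10.2 ± 1.68 counts (SD, n = 3).

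The H2B gene with the highest mean expected count was Hist1h2be, with 35.8, 25.3 and 44.1 in libraries 1 to 3. By mean TPM Hist1h2bg stood above it, at 2.45 ± 0.54 and 0.86 ± 0.49 (SD, n = 3), and by mean estimated count Hist2h2be did, at 59.3 and 56.6. The models of Hist1h2be span 23583670 to 23621124 on the minus strand of chromosome 13 and overlap Hist1h1e by 496 bases on that strand. Its annotated transcripts split the gene unevenly. The non-coding transcript Hist1h2be-203, of 2099 bases and without a hairpin, held 59.4%, 55.2% and 85.6% of the gene's abundance in libraries 1 to 3, and the coding transcript Hist1h2be-202 held 40.6%, 44.8% and 14.4%. In the second quantification Hist1h2be-203 held 70.0%, 73.5% and 90.6%, so it was the larger share in each library in both. Hist1h2bg had 22.1, 22.0 and 18.9 counts, Hist2h2be had 11.0, 13.0 and 18.0, and Hist1h2bc averaged 13.5 ± 3.85 (SD, n = 3).

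H4 was the type with the most genes detected, at 8 of 13. Hist1h4i had 36.5, 36.4 and 30.7 expected counts in libraries 1 to 3, and Hist1h4c had 37.3, 33.6 and 26.3. Hist1h4m had 38.3, 17.2 and 23.0 counts, and 10.2% of its runs of 50 bases are its own, the rest being shared mostly with Hist1h4n. Hist1h4d, Hist1h4n, Hist1h4h and Hist2h4 averaged 21.3 ± 3.79, 19.1 ± 4.47, 18.4 ± 9.14 and 18.0 ± 3.46 counts (SD, n = 3). Hist4h4, the single gene of Hist4 on chromosome 6, had 18.0, 17.0 and 12.0. Among H3 genes 3 of 12 were detected: Hist1h3d averaged 24.5 ± 5.09, Hist1h3e 17.7 ± 1.56 and Hist2h3b 11.3 ± 0.966 counts.

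By cluster, Hist1 held more counts than any other in each library. Its 54 genes (chromosome 13, 21715763 to 23934851) summed to 44.4, 36.6 and 28.8 CPM in libraries 1 to 3, the 10 genes of Hist2 (chromosome 3, 96219865 to 96270132) to 8.49, 9.60 and 8.90, the 2 of Hist3 to 8.79, 7.16 and 22.5, and Hist4h4 to 1.10, 0.998 and 0.741. Hist2 and Hist3 changed places between libraries, Hist3 being below Hist2 in library 2, close to it in library 1 and above it in library 3. In the second quantification Hist3 had 6.74, 5.54 and 17.4 CPM and Hist2 10.6, 10.8 and 8.74, so Hist3 was lower in libraries 1 and 2. Detection was uneven within Hist1, whose genes lie in 2 stretches: 15 of 31 were detected in the stretch from 23531050 to 23934851 and 3 of 23 in that from 21715763 to 22043676. The stretches summed to 26.2 ± 4.72 and 10.4 ± 3.22 CPM (SD, n = 3). Per length, their median genes had 0.79, 0.53 and 0.71 TPM and 0.65, 1.13 and 0.40 TPM in libraries 1 to 3. Neither stretch was thus higher per length in each library. In Hist2, 5 of 10 genes were detected.

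By type, H2A summed to 19.1, 18.9 and 30.7 CPM in libraries 1 to 3, and to 10.4, 11.9 and 8.30 without Hist3h2a. H4 summed to 16.2, 12.4 and 10.1, H1 to 12.3, 9.64 and 7.66, H2B to 9.998, 7.38 and 7.49, and H3 to 5.21, 5.98 and 5.01 CPM. With Hist3h2a, H2A came first in each library, whereas without it H4 came first in each and H2A lay below H1 in library 1 and above it in libraries 2 and 3. In the second quantification without Hist3h2a, H4 came first in library 1 only: H2A had 11.99 and H4 11.2 CPM in library 2, and H2B had 12.7 and H4 12.2 CPM in library 3. H3 was lowest in each library. Per length, the median H4 gene had 2.25, 1.51 and 1.16 TPM, above the medians of the other types in each library. The medians of H1, H2A, H3 and H2B were 0.869 ± 0.152, 0.781 ± 0.265, 0.522 ± 0.0882 and 0.505 ± 0.178 TPM (SD, n = 3). H1 and H2A did not differ beyond their spread, nor did H3 and H2B.

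**Figure D3:**
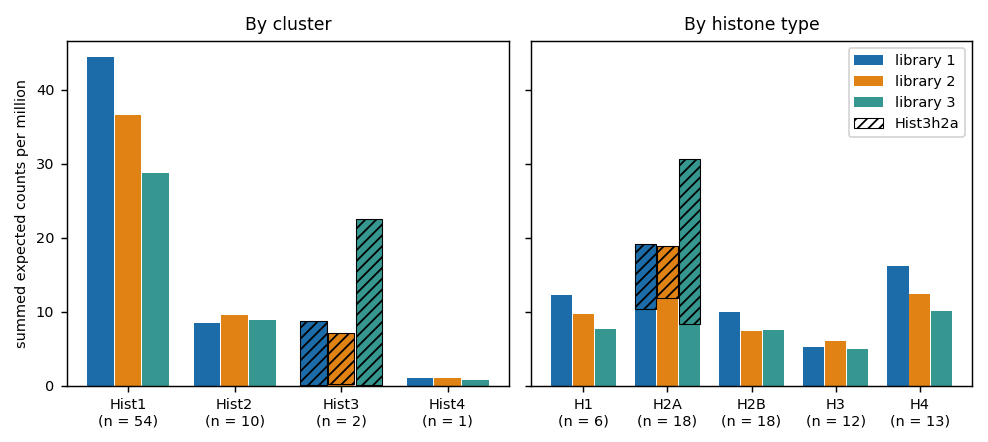
Summed CPM of the clustered histone genes by cluster and by histone type (n, the number of genes), 1 bar for each of libraries 1 to 3, with the part held by Hist3h2a hatched. Hist1 holds 28.8 to 44.4 CPM, and Hist3h2a makes up nearly all of Hist3 and 22.4 of 30.7 CPM of H2A in library 3.

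The hairpin divided the gene models by length. In 22 genes the longest stretch after the hairpin was at most 100 bases, so the model ends about where the cleaved mRNA would. In 22 it ran further, up to 4884 bases in Hist1h1d, and in 23 no hairpin was found. The median model of these 23 was 411 bases long, and a model that ends before the hairpin cannot show it. Of the models that end at the hairpin 6 of 22 were detected, of those that run past it 15 of 22, and of those without one 4 of 23. The sums were 14.4 ± 3.30, 37.6 ± 7.11 and 7.38 ± 2.06 CPM (SD, n = 3), and the models that run past the hairpin had 24.9 ± 2.76 without Hist3h2a. Counts grow with length, and the median model was 484 bases long where it ends at the hairpin and 1255 where it runs past it. Per length the order was the other way in libraries 1 and 2: the median was 0.875, 1.16 and 0.930 TPM for models that end at the hairpin and 0.585, 0.635 and 1.03 for those that run past it. Reads before and after the hairpin are not separated in the deposited tables, so the level of cleaved and longer RNA within a gene was not measured.

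**Figure D4:**
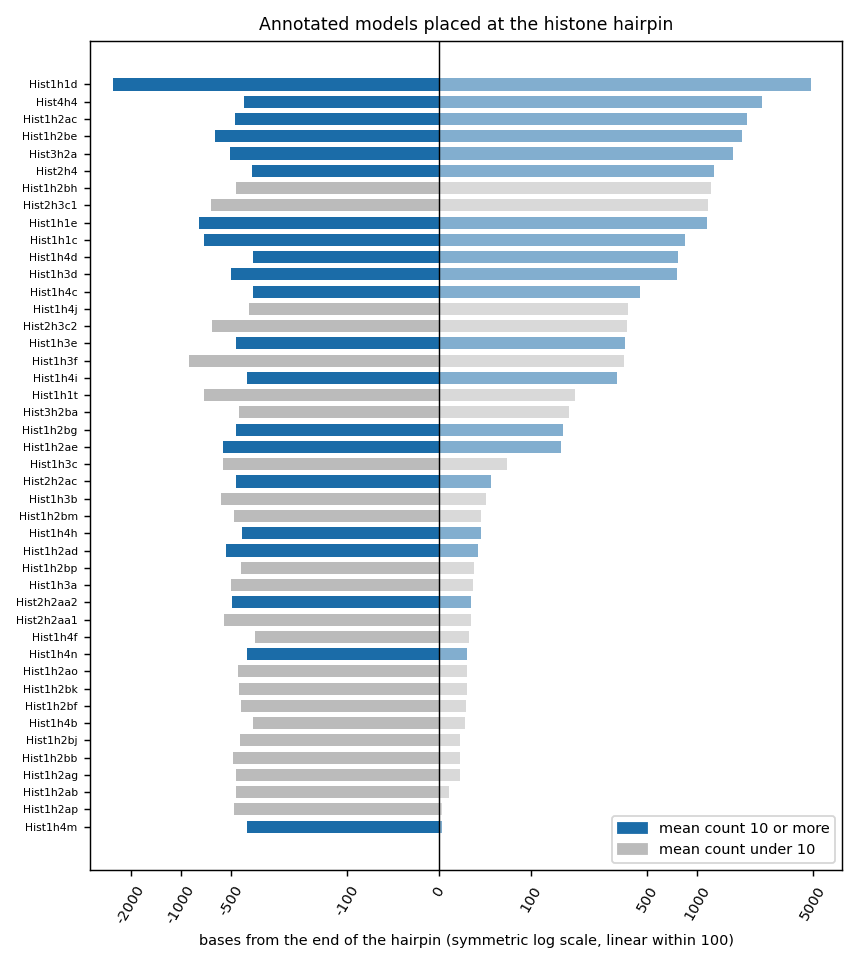
Annotated transcripts of the 44 genes with a histone hairpin, 1 bar a gene (the transcript with the most bases after it), placed at the end of the hairpin on a symmetric log scale in bases. Dark blue and light blue mark the parts before and after the hairpin of genes with a mean of at least 10 counts, and grey the others. Of the 22 models that run over 100 bases past the hairpin 15 are blue, against 6 of the 22 that do not.

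The genes are near copies of each other, which limits how their reads can be assigned. Over the 67 genes, the median share of runs of 50 bases found in no other gene was 45.9%, and 5 genes had none. The median was 69.4% in the 25 detected genes and 35.9% in the 42 others. Their median lengths were 836 and 478 bases, so uniqueness and length cannot be told apart in this comparison. On the genome, microRNA models overlap 17 of the genes and averaged at most 1.22 counts. Models of other kinds overlap 11 genes, some with counts and some with none. Trim17, over Hist3h2a, averaged 143 expected counts. Gm20634, on the same strand as Hist2h3c1 and Hist2h2aa1 and overlapping them by 1825 and 529 bases, averaged 41.4.

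Upstream of the start sites the family shared 3 short motifs known from histone promoters: CCAAT, the site of NF-Y, the TATA box as TATAAA, and ATTTGCAT, the octamer bound by Oct1 (Pou2f1). The promoters are the 300 bases from 250 before to 50 after the start in RefSeq, build GRCm38.p6, which held 62 of the 67 genes, and both strands were searched. CCAAT occurred in 53 of 62 (85.5%), against 37.4% of 32851 RefSeq promoters, TATAAA in 35 (56.5%), against 13.6%, and ATTTGCAT in 13, against 1.74%. The octamer was in 7 of 18 H2A and 6 of 16 H2B promoters and in none of the 28 of H1, H3 and H4. CCAAT was in all 50 promoters of H1, H2A, H2B and H3 but in 3 of 12 of H4. None of the 3 motifs contains another, but genes that start head to head share promoter bases and are not independent. Among detected genes CCAAT was in 17 of 22 promoters, and among the others in 36 of 40. The promoters of the genes with the highest mean TPM and the most counts are printed with motifs of either strand in capitals, at chr3:96220831-96221130 (minus strand) and chr11:58954435-58954734 (plus strand).
Hist2h2ac: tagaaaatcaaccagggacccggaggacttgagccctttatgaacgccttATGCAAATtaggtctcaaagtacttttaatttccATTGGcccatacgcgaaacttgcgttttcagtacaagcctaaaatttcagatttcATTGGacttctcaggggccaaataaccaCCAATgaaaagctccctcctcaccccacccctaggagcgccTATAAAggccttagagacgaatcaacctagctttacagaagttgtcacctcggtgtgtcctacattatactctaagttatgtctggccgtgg
Hist3h2a: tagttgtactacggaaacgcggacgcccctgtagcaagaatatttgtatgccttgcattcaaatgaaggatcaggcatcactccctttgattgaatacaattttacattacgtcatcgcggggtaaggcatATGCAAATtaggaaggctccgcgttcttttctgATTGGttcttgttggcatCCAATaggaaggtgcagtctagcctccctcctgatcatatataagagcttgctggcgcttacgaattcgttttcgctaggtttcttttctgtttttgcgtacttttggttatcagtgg
Both hold the octamer and CCAAT, and TATAAA is in that of Hist2h2ac only.

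Head-to-head pairs, with starts at most 1000 bases apart on opposite strands, numbered 13, of which 12 joined an H2A and an H2B gene. Both genes were detected in 3 pairs, 1 in 1 pair and neither in 9. In the pair of Hist2h2ac and Hist2h2be, whose starts are 239 bases apart, Hist2h2ac had 5.56, 8.74 and 11.0 TPM and Hist2h2be 0.17, 0.22 and 0.47. In the pair of Hist1h2ae and Hist1h2bg, 176 bases apart, Hist1h2ae had 1.10, 1.63 and 2.08 TPM and Hist1h2bg 1.97, 2.35 and 3.04. Hist1h2ac and Hist1h2bc, 251 bases apart, averaged 0.203 ± 0.0231 and 0.647 ± 0.101 TPM (SD, n = 3). Within each of these pairs the same gene was higher in all 3 libraries.

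The genes that act on the family were mostly detected. Of 23 genes of histone mRNA processing and decay, 22 were detected, and the highest by mean TPM were the uridylyltransferase genes Tut7 at 117 ± 19.8 and Tut4 at 70.8 ± 16.3, Srrt, the gene of a cap-complex partner, at 77.8 ± 26, and Sympk, the gene of a cleavage scaffold, at 16.3 ± 5.85 TPM (SD, n = 3). Slbp, the gene of the hairpin-binding protein, had 4.89, 5.76 and 13.6 TPM. Rnu7, the gene of the U7 snRNA, was listed at 0 in each library, but its deposited effective length was also 0, so this 0 is no measure of its level. Of 14 transcription factor and cyclin genes 13 were detected, led by Nfya at 63.0 ± 9.97, Hinfp, whose protein binds H4 promoters, at 6.78 ± 2.12, E2f4 at 6.16 ± 1.40 and Nfyc at 6.12 ± 1.83 TPM.

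Genes listed for S phase and cell division were detected in 29 of 32 cases. The highest were Mki67 at 43.0 ± 13.5, Tk1 at 31.8 ± 13.2, Pcna at 17.3 ± 7.09 and Pola1 at 8.59 ± 0.535 TPM (SD, n = 3). The list summed to 1143, 712 and 662 CPM in libraries 1 to 3, so it was highest in library 1, as was the sum of histone genes without Hist3h2a. Most of that sum was Mki67, with 14881, 7186 and 6716 counts, and of the 29 detected genes of the list 2 were highest in library 1. Whether dividing cells bear on the histone sum was not tested. Some replacement histone genes stood above every clustered gene per length: H3f3b, an H3.3 gene, had 105, 169 and 419 TPM, Cenpa, the gene of the centromeric H3, averaged 68.7 ± 47.9, H2afy, the gene of macroH2A1, 57.5 ± 13.0 and H3f3a 20.1 ± 7.11 (SD, n = 3). Of 11 such genes 10 were detected, and H1fx was listed at 0. H3f3b, Cenpa, H2afy and H3f3a each exceeded the highest clustered gene in each library, while the median of the 11 genes was 0.92 TPM.

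Each library was also quantified a second time, per transcript, and the results were compared gene by gene. In edgeR's quasi-likelihood test with library as a block, 29 of the 67 genes had enough counts, and 12 were higher and 5 lower in the gene table than in the estimated counts at an adjusted p under 0.05. Of all 21644 genes tested, 29.6% were higher and 48.7% lower. The filter on low counts asked for 0.479 CPM in 3 of the 6 columns. Of the genes called higher, 9 reached this in each library of both quantifications, and Hist2h3b, Hist1h2ac and Hist1h4h in each library of the gene table only. Of those called lower, 3 reached it in both, and Hist1h2bh and Hist1h2bq in each library of the estimated counts only. These 5 genes passed through the side on which they were high, so their differences are given with no p-value. Without the library block, 0 of the 29 were called higher (3 at an unadjusted p under 0.05) and 4 lower in edgeR, against 6 and 5 with DESeq2 and 14 and 5 with limma, both with the block. Over all genes the shares were 6.36% higher and 40.8% lower without the block and 23.8% and 43.8% with DESeq2. The median difference of all genes was −0.26 (log2). The p-values measure how steady a difference was over the same 3 libraries, not a difference between samples, and every difference is relative to the TMM scaling of the totals, which are larger for the estimated counts (24724674, 28795435 and 27034109). With totals unscaled the median of all genes was −0.44, a shift of over 0.1, with 6 histone genes higher and 6 lower, and 4275 higher against 11928 lower of all genes, where TMM gave 6397 against 10541.

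The 5 genes called lower were 3 H2B genes, Hist4h4 and Hist1h1d. Hist1h2bh, an H2B gene, had 4.11, 1.30 and 0 counts in the gene table, against 17.0, 28.2 and 40.9 estimated counts. The difference was −3.15 ± 0.596 (log2 ± SE), lower in 3 of 3 libraries. Hist4h4 had 18.0, 17.0 and 12.0 counts in the gene table, against 64.7, 83.5 and 133 estimated counts (−1.70 ± 0.258, edgeR adjusted p = 0.000444). Their models run 1214 and 2445 bases past the hairpin, and that of Hist1h1d 4884. Long models were also called higher, such as Hist3h2a and Hist1h1e, which run 1643 and 1153 bases past it. In Hist2h2be and Hist1h2bq, called lower, no hairpin was found.

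Hist1h1d had 42.0, 34.0 and 38.0 counts in the gene table, against 142, 177 and 200.2 estimated counts, a difference of −1.30 ± 0.13 (edgeR adjusted p = 4.44e-05). Hist2h2be had 11.0, 13.0 and 18.0, against 72.0, 46.0 and 60 (−1.21 ± 0.228, edgeR adjusted p = 0.00152). The groups of values did not overlap for either gene, which like Hist4h4 have sequences of their own, with 97.7%, 100% and 91.5% of runs of 50 bases unique in Hist1h1d, Hist2h2be and Hist4h4. Hist1h2bq had 13.3, 11.3 and 2.97 counts, against 28.4, 52.9 and 30.2 (−1.13 ± 0.316), and only 2.68% of its runs of 50 bases are its own. Its transcript Hist1h2bq-203, annotated as a target of nonsense-mediated decay, had 0 counts in each library in the first quantification and 14.4, 49.0 and 30.3 in the second.

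Among the 12 genes higher in the gene table, Hist2h2aa2 had the largest difference, with 31.7, 47.5 and 25.4 counts in the gene table, against 33.0, 47.7 and 13.8 estimated counts. On the TMM scale this was 1.04 ± 0.186 (log2 ± SE, edgeR adjusted p = 0.0011). Hist1h4m at 0.91 ± 0.163 and Hist1h4c at 0.84 ± 0.146 followed, with edgeR adjusted p-values of 0.00109 and 0.00099. Hist2h3b, Hist1h2ac and Hist1h4h, which passed the filter through the gene table, were at 0.93 ± 0.253, 0.83 ± 0.227 and 0.75 ± 0.188. Hist2h2aa2 and Hist2h3b have no run of 50 bases of their own, and Hist1h4m 10.2%. The share of such runs ranged from 0% to 100% (Hist1h1a) in genes called higher. In genes called lower it ranged from 2.68% (Hist1h2bq) to 100% (Hist2h2be), so it did not separate the directions. Hist3h2a differed by 0.60 ± 0.0705 (edgeR adjusted p = 9.96e-05). Hist1h1c, Hist1h3e, Hist1h1e, Hist1h1a and Hist1h4i were the other genes called higher, by 0.48 to 0.70. The calls of Hist1h4i, Hist1h1a, Hist1h3e, Hist1h4h, Hist1h2ac and Hist2h3b were lost with DESeq2, with unscaled totals and without at least 1 of the replicates. Hist2h2ac, the gene with the highest TPM, differed by −0.15 ± 0.104 and was not called (edgeR adjusted p = 0.326), but was called lower with unscaled totals, at −0.34 (edgeR adjusted p = 0.0242). Its TPM was 5.56, 8.74 and 11.0 in the gene table and 10.7, 10.9 and 12.4 in the second quantification.

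**Figure D5:**
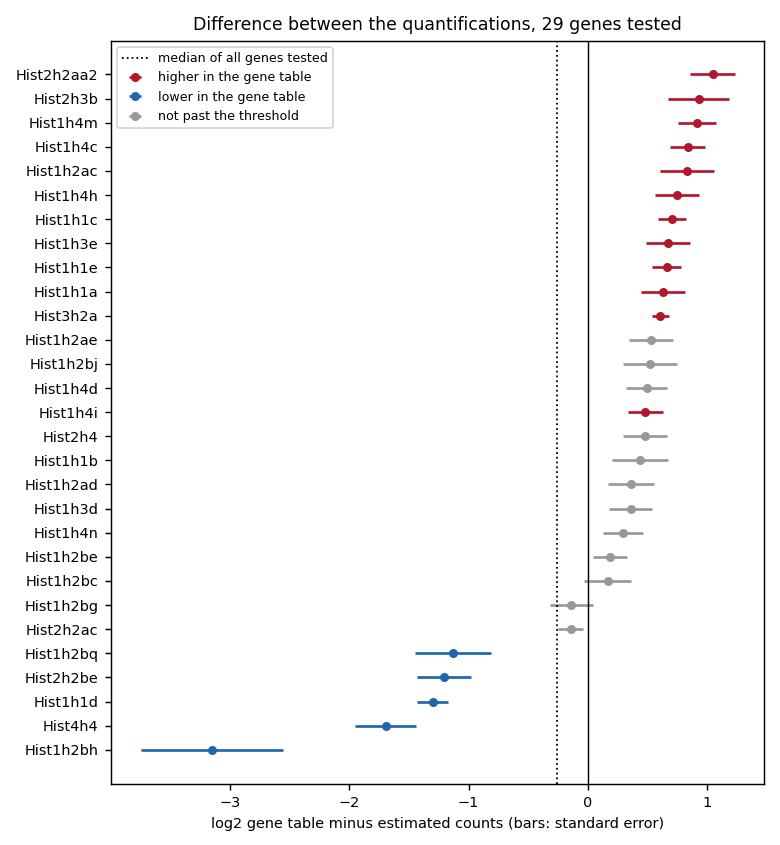
Difference between the gene table and the estimated counts (log2, bars show the standard error) for the 29 clustered histone genes tested, with genes called higher in red, lower in blue and others in grey, and a dotted line at the median of all 21644 genes. The 5 genes called lower lie between −3.15 and −1.13, and the 12 called higher between 0.48 and 1.04, including 2 and 3 that passed the filter only through the side on which they were high.

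Summed over the family the quantifications were close. The 67 genes held 62.8, 54.3 and 60.9 CPM in the gene table and 61.8, 54.9 and 63.9 CPM in the second quantification. Hist4 had a share of 1.60% ± 0.338 of the family's counts in the gene table and 5.73% ± 1.77 in the second quantification (SD, n = 3). H2B held 13.9% ± 1.84 in the gene table and 20.1% ± 0.823 in the second, and H3 held 9.18% ± 1.58 and 6.78% ± 1.13. The number of genes detected was 25 in the gene table and 37 by estimated counts. In the Hist1 stretch from 21715763 to 22043676 it was 3 of 23 in the gene table and 10 of 23 by estimated counts. Both used the same limit of 10 counts, but the library totals differ. They were 16301150, 17033725 and 16205704 expected counts and 24724674, 28795435 and 27034109 estimated counts in libraries 1 to 3. The limit is therefore lower in CPM for the estimated counts, and numbers detected at an equal CPM were not compared.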

How the data were processed

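Chromatin-fraction RNA of 1 group of 3 libraries was analysed, with groups and replicate numbers from the labels. The authors deposited a gene table and a transcript table with expected counts, TPM, posterior mean TPM with credible bounds (used as signal) and each transcript's share of its gene in percent, and a second transcript table with estimated counts and TPM, on mm10 with GENCODE M21, per the file headers and notes. The authors' quantification tools and strandedness are not named in the labels or headers. Expected and estimated counts were deposited without normalization, and TPM was scaled by the authors.

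From these, CPM was computed over annotated genes, estimated counts were summed per gene, and medians over clusters and types were taken on log2(TPM + 0.1). Entries that name no annotated gene made up 1.03%, 0.245% and 0.218% of each library's expected counts and were left out. The quantifications were compared with edgeR 4.0.16 (R 4.3.3) on counts rounded to whole numbers, with TMM, filterByExpr, library as a block because both come from the same library, and Benjamini-Hochberg adjustment at 0.05. The standard error is the log2 difference divided by the root of the quasi-likelihood F. The procedure was tested on simulated data. Alternatives were DESeq2 1.42.0, limma 3.58.1, unscaled totals, no filter, no block and leaving out each replicate. Sequence and figure work used Python 3.11.15.

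The genes and lists were chosen with earlier results of these data known. Named genes were the 20 with the highest mean count, the first of each cluster and type, up to 6 in each direction by difference between quantifications, detected genes with several transcripts, and the 4 highest of each other list. Other genes named (such as Trim17, the head-to-head pairs and genes at 0) were chosen after their values were seen. A first, narrower hairpin pattern found none in H4 genes and was replaced after the sequences were viewed. The 100-base limit, the 50-base window, the 1000-base pair distance, the division of Hist1 into 2 stretches and the sums without Hist3h2a were also chosen after seeing the data. Cpsf3l, Zcchc6 and Zcchc11 were matched as Ints11, Tut7 and Tut4 through RefSeq synonyms.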

Additional observations from a re-analysis of the deposited data

How the results depend on the processing

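The number of detected genes was 36 at a minimum of 5 counts, 23 with 10 counts in each library and 24 without Hist3h2a. It was 37 by estimated counts, whose library totals are larger, and 24 to 30 when 1 replicate was left out. The median TPM of 0.673 became 1.58 with detected genes only, 0.898 in the second quantification and 0.887 with posterior means. With estimated counts the share of Hist4 was 5.73%, of H2B 20.1% and of H3 6.78%. The sum of 59.3 CPM was 46.6 without Hist3h2a, an alternative added after seeing the data, as was TMM scaling of the sum. Of the calls between quantifications, 12 genes were higher under the main settings, 6 with DESeq2, 6 with unscaled totals, 0 without the replicate block (edgeR; 3 at an unadjusted p under 0.05), 14 with limma and 7 to 9 when 1 replicate was left out, the lowest without replicate 3. Hist1h4i, Hist1h1a, Hist1h3e, Hist1h4h, Hist1h2ac and Hist2h3b lost the call with DESeq2 and with unscaled totals, and each of them without at least 1 replicate. Without the block, Hist1h2bq lost its call too, and Hist4h4, Hist1h1d and Hist2h2be kept theirs. Hist1h2bh also stayed called, but it passed the filter only through the estimated counts, the side on which it was high. Hist1h2bc, which was not called, turned to −0.02 with unscaled totals. No other of the 29 genes changed direction under an alternative in which it was tested. Low counts limit the rest: 42 of the 67 genes averaged under 10 expected counts.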
